A study of Mus musculus with 6 samples.

Results

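The differentiated state of mouse P19 cells was compared with their undifferentiated state in 2 lines, so 4 of the 6 arrays of the series carry the comparison. P19 is an embryonal carcinoma line, a tumour-derived pluripotent line used as a model of early neural development. The AICD/P19 line expresses AICD, the intracellular fragment that gamma-secretase frees from the amyloid precursor protein, and the pCDNA/P19 line (the vector line) carries the empty plasmid. The labels do not say whether a line is a clone or a pool. Undifferentiated cells had no retinoic acid, and differentiated cells had been aggregated for 4 days in all-trans retinoic acid and then replated on dishes for 2 days. The 2 aggregated arrays, RNA taken at the end of the 4 days, lie outside the comparison. They entered the model, the probe filter and the choice of probe, and some of their levels are given. Total RNA was labelled with Cy3 and read on Agilent arrays, 1 array per line and state with no replicate.

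Retinoic acid binds nuclear receptors that switch on Hox genes and neurogenic factors, and aggregated P19 cells treated with it leave the pluripotent state and turn into neural progenitors, neurons and later glia. Pluripotency in such cells rests on a network around Pou5f1 and Sox2 and on Nodal-type signals, while neuronal genes are held down outside the nervous system by the repressor Rest, which binds a DNA element called RE1. Neurogenesis then runs through Notch signalling between neighbours, proneural transcription factors and exit from the cell cycle.

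The promoters below belong to genes on which the results turn: Gria2, Gad2 and Robo2 rose and hold the RE1 core, Ldha fell with the glycolytic enzymes, and Hmgcs1 rose with the sterol enzymes. They are RefSeq sequences of GRCm38.p6, 250 bases before to 50 after the gene start, written 5' to 3' on the gene's strand. Capitals mark, in each promoter, a match on either strand to the element it is shown for: the core of RE1, ACGTG (the core bound by hypoxia-inducible factors, which also lies inside the E-box CACGTG) or TCACNCCAC (a sterol element bound by SREBP). Gria2 lies at chr3:80802786-80803085 on the minus strand, Gad2 at chr2:22622077-22622376 on the plus strand and Robo2 at chr16:75447244-75447543 on the minus strand. Ldha lies at chr7:46845554-46845853 and Hmgcs1 at chr13:119690101-119690400, both on the plus strand.
Gria2: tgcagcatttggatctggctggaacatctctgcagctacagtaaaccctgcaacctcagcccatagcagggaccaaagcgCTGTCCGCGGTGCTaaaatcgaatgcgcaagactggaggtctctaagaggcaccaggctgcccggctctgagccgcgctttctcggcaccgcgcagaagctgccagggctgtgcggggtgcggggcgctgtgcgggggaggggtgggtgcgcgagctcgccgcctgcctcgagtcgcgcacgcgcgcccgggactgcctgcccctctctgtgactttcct
Gad2: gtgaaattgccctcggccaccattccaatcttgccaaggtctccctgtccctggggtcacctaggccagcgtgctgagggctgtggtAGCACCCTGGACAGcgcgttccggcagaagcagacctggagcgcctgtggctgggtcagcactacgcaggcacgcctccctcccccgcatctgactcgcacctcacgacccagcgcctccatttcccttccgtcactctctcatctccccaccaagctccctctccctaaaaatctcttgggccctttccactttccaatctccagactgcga
Robo2: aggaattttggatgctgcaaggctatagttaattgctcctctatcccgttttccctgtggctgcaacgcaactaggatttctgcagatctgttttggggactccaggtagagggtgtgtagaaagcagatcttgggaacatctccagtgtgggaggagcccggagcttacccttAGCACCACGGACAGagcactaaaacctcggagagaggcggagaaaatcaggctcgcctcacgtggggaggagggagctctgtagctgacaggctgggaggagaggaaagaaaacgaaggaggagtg
Ldha: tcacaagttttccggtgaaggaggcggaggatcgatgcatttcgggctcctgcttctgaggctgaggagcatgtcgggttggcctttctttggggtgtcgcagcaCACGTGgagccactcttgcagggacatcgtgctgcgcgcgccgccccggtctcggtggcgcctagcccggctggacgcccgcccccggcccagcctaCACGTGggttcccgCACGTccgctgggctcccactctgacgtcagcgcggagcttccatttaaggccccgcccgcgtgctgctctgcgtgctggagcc
Hmgcs1: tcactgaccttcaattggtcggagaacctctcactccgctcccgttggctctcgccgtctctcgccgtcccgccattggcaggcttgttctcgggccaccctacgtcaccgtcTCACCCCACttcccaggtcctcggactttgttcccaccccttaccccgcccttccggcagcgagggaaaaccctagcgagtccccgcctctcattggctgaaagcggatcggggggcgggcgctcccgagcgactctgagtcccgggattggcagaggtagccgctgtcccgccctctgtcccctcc
The RE1 match began at -170 from the gene start in Gria2, at -163 in Gad2 and at -76 in Robo2. The first ACGTG match of Ldha began at -145, and the TCACNCCAC match of Hmgcs1 at -137. The Robo2 window also holds ACGTG on both strands, left in lower case. A match describes the letters only and shows no binding.

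Levels are log2 processed signals minus the log2 of the array's 75th percentile, and pairs of values are given in the order vector line, AICD line. The change of a gene is the mean over the lines of differentiated minus undifferentiated, with the standard error of a limma model. "Rose", "fell" and "called" are used for a Benjamini-Hochberg adjusted p below 0.05 over the 13380 genes tested. Where a gene has several probes, the one with the highest mean level is given. A change is as measured where 1 of the arrays was not well above background, and the text says so. The array facts were even: 62.0% to 65.9% of spots lay well above background, 0 were saturated, and repeated spots of a probe had an SD of 0.0679 to 0.0821 within an array. Both undifferentiated arrays sat on one slide and the other 4 arrays on a second slide with a second scan, so slide and state cannot be told apart.

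The change was large. The model called 8214 of 13380 genes (61.4%): 2691 (20.1%) were higher and 5523 (41.3%) lower in the differentiated state. All calls had the same sign in both lines, but the error of the model grows with the difference between lines, so a gene of opposite signs can hardly be called and this count is no evidence of likeness. Of the calls, 2387 (29.1%) were under 2-fold. Among the 11771 genes well above background on all 4 arrays, 1363 (11.6%) were at least 2-fold higher in both lines, whereas 2555 (21.7%) were lower by that factor. The largest changes leaned the other way, with 172 genes up by 10-fold or more in both lines and 34 down. A further 297 genes (2.22% of those tested) were well above background on both differentiated and neither undifferentiated array, and 421 (3.15%) showed the reverse. The change of a gene in the vector line correlated with that in the AICD line at r = 0.871 across genes (genes are no replicates), and the median size of the change was 1.08 (vector line) and 0.83 (AICD line). With 61.4% of genes called, a call by itself says little about a gene, and the main counts below are read against 20.1% and 41.3%. Those shares do not hold at other settings, where a list count is read against that setting's own totals over the 13380 genes. On spike-in scaling, described below, the totals were 3612 higher and 2183 lower. Without the vector differentiated array 896 genes were called (515 higher, 381 lower), and without the vector undifferentiated array 4509.

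**Figure D1:**
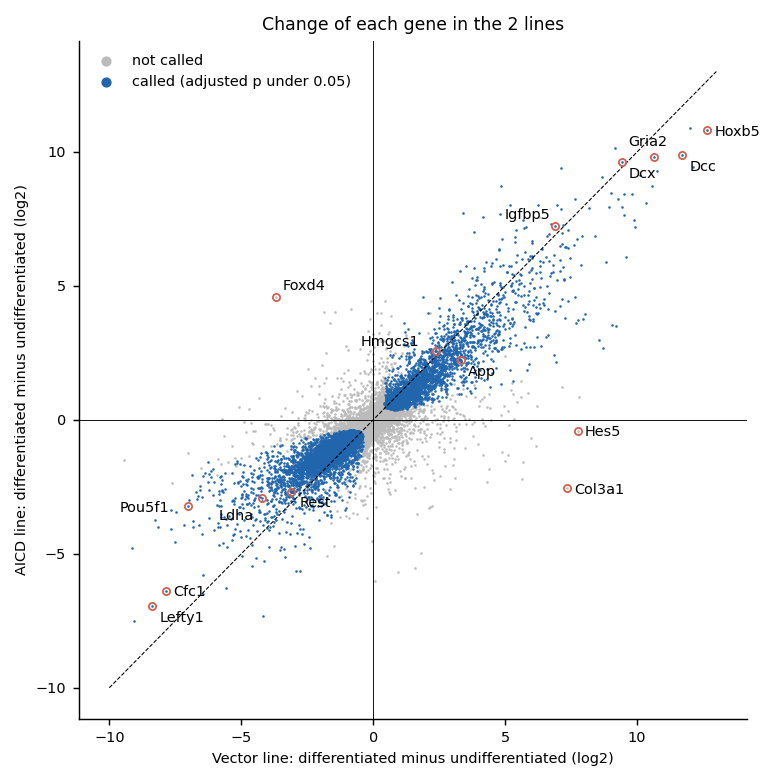
Change from undifferentiated to differentiated (log2) in the vector line (x axis) and the AICD line (y axis), 1 point per gene tested, blue where called at adjusted p below 0.05, as measured and without bounds for dim genes; the dashed line marks equal change. Circled genes are named in the text: Dcx, Gria2, Dcc and Hoxb5 lie at the top right, Lefty1 and Cfc1 at the bottom left, and Hes5, Col3a1 and Foxd4 away from the diagonal.

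The balance of higher and lower genes depended on the scaling. With the 75th percentile the median change of all genes was -0.44, and 32.8% of the calls were higher. On the spike-in controls, RNAs added to each labelling reaction, the median was 0.09, and 62.3% of 5795 calls were higher (3612 higher, 2183 lower). The spike-ins themselves changed by -0.64 (vector line) and -0.44 (AICD line) under percentile scaling. Changes of about 0.5 or less are therefore set against the median of all genes below.

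**Figure D2:**
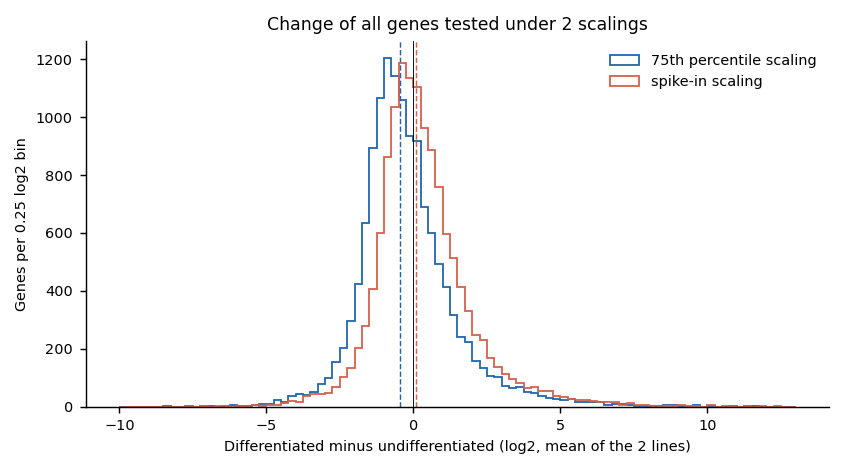
Number of genes per 0.25 log2 bin (y axis) by change from undifferentiated to differentiated (x axis), for the 13380 genes under 75th percentile scaling (blue) and spike-in scaling (red). Dashed lines mark the medians of -0.44 and 0.09; the curve keeps its shape and moves to the right.

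Genes of the pluripotent state fell. Of 29 measured genes of the pluripotency list 20 fell (69.0%, against 41.3% of all genes) and 0 rose, with a median change of -3.38 (-2.5 with dim genes at their bound, -2.19 with the normexp background correction). Without the vector differentiated array 4 fell, and without the vector undifferentiated array 12 fell, with a median of -2.19. Pou5f1, which encodes the central pluripotency factor Oct4, stood at 6.37 and 6.48 in the undifferentiated and at -0.64 and 3.25 in the differentiated state. Its change was -5.12 ± 1.4 (limma, adjusted p = 0.0374), and the differentiated AICD array kept the higher level. In bulk RNA fewer cells that express a gene and less RNA per cell cannot be told apart. Lefty1, a secreted inhibitor of Nodal, went from 3.56 and 3.46 to -4.81 and -3.49, a change of -7.66 ± 1.08 (limma, adjusted p = 0.0093). Cfc1, a Nodal co-receptor, fell by 7.13, and Tdgf1, the related co-receptor Cripto, by 6.48, from 0.26 and 1.21 to -6.19 and -5.31, with 1 of the differentiated arrays well above background.

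The list did not fall evenly in the lines: its median was -3.68 in the vector and -1.98 in the AICD line. Utf1, a chromatin factor of pluripotent cells, fell from 2.64 and 1.3 to -3.38 and -2.83. Lin28a, an RNA-binding protein that blocks let-7 maturation, went from 4.58 and 3.88 to -2.06 and 1.02, and Gdf3, a TGF-beta family ligand, from 3.52 and 4.26 to -2.71 and 1.66. Nr0b1 (-7.62 in the vector and -2.36 in the AICD line) and Otx2 (-5.77 and -1.66) were large but unequal and not called, at limma adjusted p = 0.056 and 0.0564. Sox2, shared by pluripotent and neural progenitor cells, fell by 1.31, and Klf2 fell by 0.65, near the median of all genes (-0.44). The summed linear level of the 6 measured embryonal carcinoma markers was 116 and 109 in the undifferentiated, and 1.29 and 11.9 in the differentiated state; what this line difference contributes to other genes was not tested.

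Enzymes that place DNA methylation fell along with these genes. Dnmt3b, a de novo methyltransferase, went from 5.26 and 4.27 to -1.43 and 1.31, a change of -4.83 ± 0.96 (limma, adjusted p = 0.0171). Dnmt3a fell by 2.01 (its 3 probes gave -2.5 to -0.67) and the cofactor Dnmt3l by 2.07. Dnmt1, which copies methylation at replication, changed by -0.43 (limma, adjusted p = 0.0644), which is the median of all genes. Tet2, a methylcytosine dioxygenase, rose by 2.36 from -4.06 and -3.26 to -1.32 and -1.28. In the list of DNA methylation and germline genes 10 of 15 measured members fell and 2 rose (7 and 2 on spike-in scaling), and without the vector differentiated array 2 and 0 did. Tex19.1, a germline and pluripotency gene, was at least 30.04-fold lower, being above background only in the undifferentiated state.

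Neural progenitor genes divided. Of 28 measured members 12 rose (42.9%) and 4 fell (13 and 1 on spike-in scaling), and without the vector differentiated array 6 and 0 did. Fabp7, a fatty acid-binding protein of radial glia, went from -1.02 and -2.41 to 5.93 and 5.62, a change of 7.5 ± 0.354 (limma, adjusted p = 0.00494). Sox9 rose by 4.82, Sox21 by 4.88 and Dach1 by 5.08, all transcription factors of the neural tube; other probes gave as little as 1.8 for Sox9 and 2.76 for Dach1. Dbx1, which marks ventral interneuron progenitors, went from -7.67 and -3.45 to -1.65 and 3.15, with 1 undifferentiated array well above background. By contrast the RNA-binding protein Msi1 fell by 1.67 and the glutamate transporter Slc1a3 by 1.83. Nes, the intermediate filament of progenitors, stood at 3.31 and 3.6 before and 3.12 and 3.84 after, within 0.24 of the start in each line. Pax6 was at -3.83 and -0.59 before and -1.13 and -0.26 after and was not called (limma, adjusted p = 0.173).

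Notch ligands and modifiers rose, with 12 of 27 measured members of the pathway higher (44.4%) and 2 lower; 4 and 0 were called without the vector differentiated array. The ligand Dll1 went from -0.03 and 0.63 to 3.75 on both arrays, and Dll3, which inhibits Notch in the same cell, rose by 4.38 ± 0.25 (limma, adjusted p = 0.00494). The glycosyltransferases Mfng and Lfng, which tune the receptor, rose by 4.73 and 2.2. The receptor Notch1 rose by 2.79, and Nrarp, a feedback target, by 3.19 from -2.95 and -3.05 to 0.19 and 0.2. Rbpj, the DNA-binding partner of the receptor, fell by 1.01. Hes1 did not move together in the lines (-0.31 and 1.16) and was not called. Hes5, a Notch target of progenitors, was at -1.93 and 5.82 in the vector line and at -5.06 and -5.47 in the AICD line, so only the vector line gained it.

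Transcription factors of neurogenesis rose in 25 of 35 measured cases (71.4%) and fell in 2, with a median change of 3.46 (1.79 with the normexp background correction); without the vector differentiated array 14 rose and 0 fell. Of the measured members 10 were detected only in the differentiated of the 2 states and could hardly be called lower. Among the 16 detected on all 4 arrays 10 were at least 2-fold higher in both lines and 1 lower. Neurog2, a proneural factor, went from -5.84 and -4.76 to -0.08 and -1.28, a change of 4.61 ± 0.59 (limma, adjusted p = 0.00846) with 1 undifferentiated array well above background. Nhlh1, a helix-loop-helix factor of newborn neurons, was at least 121.5-fold higher, from -7.72 and -7.61, both below detection, to 1.31 and 0.87. Myt1, a zinc finger factor that favours the neuronal fate, went from below detection to 3.17 and 2.41, at least 394.9-fold. Of its relatives, St18 was at least 46.73-fold higher, and Myt1l, well above background on 1 undifferentiated array, went from -5.26 and -7.7 to 0.97 and 0.31.

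Factors of spinal and hindbrain neuron classes were among those that rose. Ebf3 changed by 6.16 (3.04 at its other probe), Onecut2 by 6.26, and Tlx3, of excitatory dorsal neurons, was at least 48.43-fold higher. Ebf2 rose more in the vector line (9.21) than in the AICD line (3.49), the undifferentiated vector value being at background. The 2 members called lower were Neurog1 (-0.82) and Pou4f1 (-1.54), but the other probe of Pou4f1 changed by 6.8, so its direction depends on the probe. Nhlh2 reached 0.16 in the vector line and stayed at -7.19, below detection, in the AICD line.

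Rest fell in both lines. Its level went from 3.24 and 3.16 to 1.54 and 1.12 in the aggregates and 0.128 and 0.449 in the differentiated state, a change of -2.91 ± 0.233 (limma, adjusted p = 0.00624). The state groups did not overlap, which says little with 2 arrays per state and 61.4% of all genes called. Rest and the motif genes were chosen after values were seen. The RE1 core was found in 17 of 32851 RefSeq promoter windows (0.0517%), of which 12 belong to tested genes: 6 of these rose, 2 fell and 4 were not called, against 20.1% and 41.3% of all genes. The 6 were Gria2, Gad2, Robo2, Ttc9b (6.29), Hrh3 (1.86) and Scamp5 (1.38, and 0.22 at its other probe). Gria2 and Gad2 encode transmitter-related proteins, Robo2 an axon receptor, Hrh3 a histamine receptor and Scamp5 a secretory carrier protein. Ogdhl (-1.18) and Sptbn4 (-1.97) fell. Gria2 and Robo2 were detected on both differentiated and neither undifferentiated array, so they could hardly be called lower. Gad2 was well above background on 1 undifferentiated array. Lhx3, among the 4 not called, was detected on both undifferentiated and neither differentiated array. A link between the fall of Rest and these genes was not tested. The window is short, and genes without the letters there may carry RE1 elsewhere.

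Neuronal cytoskeleton and RNA-binding genes rose. Of 34 measured members 29 rose (85.3%) and 1 fell, with a median of 2.67, and 11 rose without the vector differentiated array. Dcx, a microtubule protein of migrating neurons, went from -4.15 and -4.73 to 5.26 and 4.89, a change of 9.51 ± 0.367 (limma, adjusted p = 0.00494), and its other probe gave 7.57. Mapt, which encodes tau, went from -4.09 and -3.88 to 4.85 and 4.08, and its 3 probes gave 6.76 to 8.54. Celf3, a splicing regulator, rose by 8.88, Map2 of dendrites by 6.01 and Rbfox1 by 6.05. Tubb3, the neuronal beta-tubulin, was already at 2.51 and 2.53 and reached 5.87 and 5.28. Stmn2 was at 1.65 and 2.22 before and 3.43 and 3.09 after and was not called (limma, adjusted p = 0.0661). The 1 member called lower was Srrm4, a splicing factor of neurons (-0.98), whose probes gave -0.98 to 7.85, so its direction depends on the probe. The 10 neuron markers summed to 16.9 and 16.8 in the undifferentiated and to 201 and 165 in the differentiated state.

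**Figure D3:**
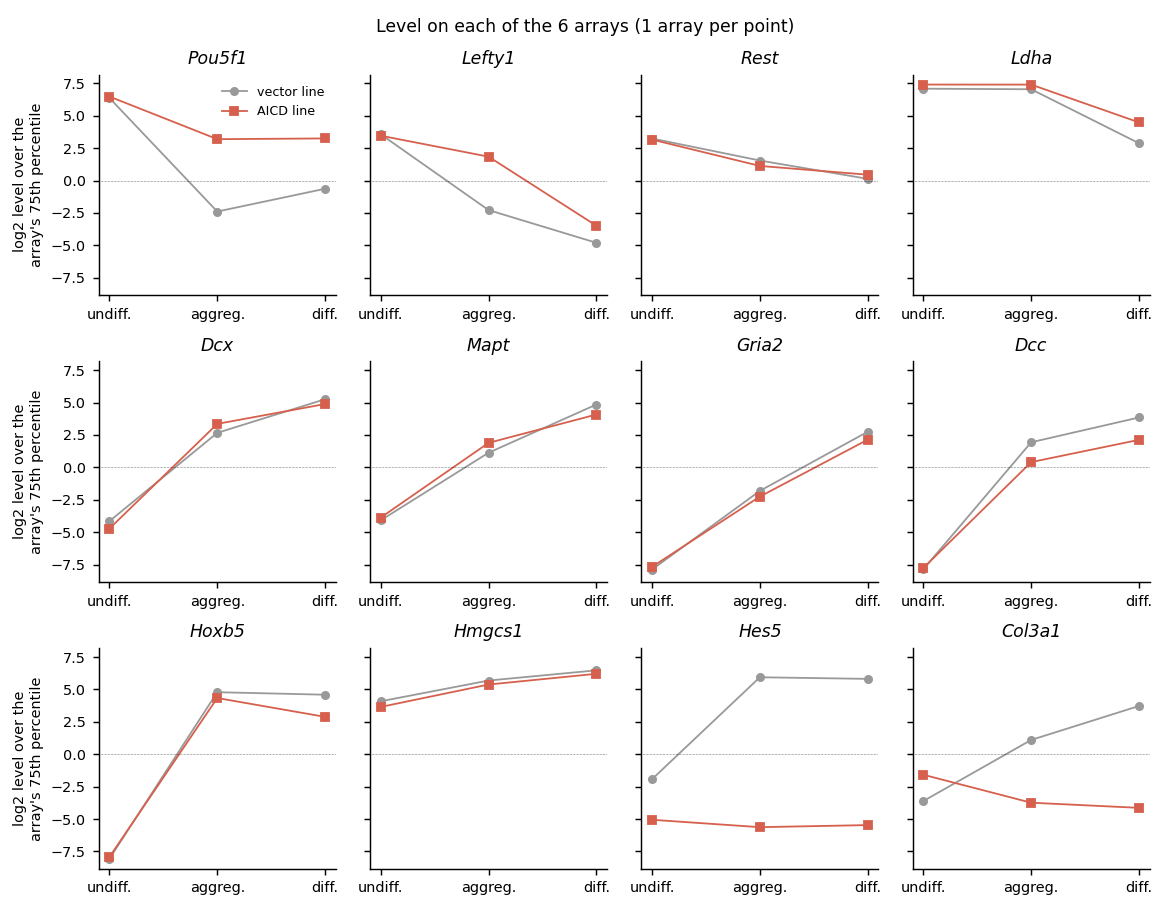
Level of 12 genes (y axis, log2 over the array's 75th percentile) in the undifferentiated, aggregated and differentiated state (x axis), 1 array per point, grey circles for the vector line and red squares for the AICD line. Dcx, Mapt, Gria2 and Dcc rose in step in both lines and Rest fell in step, whereas Ldha stayed level to the aggregates (7.04 and 7.4) and fell after replating, and Hes5 and Col3a1 ran apart in the lines.

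Synaptic and secretory genes rose in 25 of 34 measured cases (73.5%) and fell in 3, with a median of 2.83; 12 and 0 were called without the vector differentiated array. Of the measured members 6 were detected only in the differentiated of the 2 states and could hardly be called lower. Among the 24 detected on all 4 arrays 17 were at least 2-fold higher in both lines and 2 lower. Chgb, a granin of dense-core vesicles, went from -4.82 and -3.5 to 4.7 and 4.95, a change of 8.98 ± 0.303 (limma, adjusted p = 0.00494). The granule proteins Scg5 and Scg3 rose by 6.13 and 5.83. Pclo, a scaffold of the active zone, changed by 6.5 and the vesicle protein Syp by 5.77, each with 1 undifferentiated array well above background. Snap25, of the fusion machinery, was at least 7.807-fold higher, reaching -2.82 and -2.93. Syn1, a vesicle phosphoprotein, was called lower at one probe, from 6.27 and 6.22 to 4.74 and 4.68 (-1.54), while its other probe changed by 1.41. Sv2b fell by 1.2. Sncb was also called lower, with a bound of at least 2.075-fold.

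Transmitter enzymes, transporters and receptors of several systems rose: 21 of 38 measured members rose (55.3%) and 6 fell (22 and 2 on spike-in scaling), and 7 and 1 were called without the vector differentiated array. Of the measured members 7 were detected only in the differentiated of the 2 states and could hardly be called lower. Among the 21 detected on all 4 arrays 11 were at least 2-fold higher in both lines and 5 lower. Gria2, the AMPA receptor subunit that limits calcium entry, was below detection at -7.88 and -7.68 and reached 2.75 and 2.14, at least 311-fold. Gad1, which makes GABA, was at least 37.3-fold higher and reached 0.82 and -2.05, so the vector line had the higher level. Gad2 went from -5.96 and -4.8, with 1 array well above background, to 0.09 and -1.03. Slc6a5, the glycine transporter, reached -0.33 in the vector and -4.23 in the AICD line, at least 11.78-fold on their mean. The nicotinic subunit Chrnb2 rose by 5.78 and Gabbr1, a GABA-B receptor subunit, by 5.19 (2.29 at another probe).

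Slc17a6, the vesicular glutamate transporter of the brain stem and spinal cord, went from -3.78 and -5.43 to 2.51 and 2.14 but was not called (limma, adjusted p = 0.0502), its aggregated values being -7.32 and -0.98. Its relative Slc17a7 fell by 1.62 to -3.12 and -3.65. Ddc, of dopamine and serotonin synthesis, fell by 3.26 (-0.86 at its other probe), and the NMDA receptor subunit Grin1 by 1.71. Th, of dopamine synthesis, was not well above background on any of the 4 arrays, and Chat, the acetylcholine enzyme, was so on 1.

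Ion channels were mixed: 15 of 29 measured members rose (51.7%) and 6 fell (16 and 3 on spike-in scaling), with a median of 0.87 (0.44 with normexp, 1.41 on spike-in scaling), and 7 and 0 were called without the vector differentiated array. Detection limits this count, since 6 measured members were detected only in the differentiated of the 2 states and could hardly be called lower. Among the 17 detected on all 4 arrays 5 were at least 2-fold higher in both lines and 4 lower. Counting only genes detected on all 4 arrays turned the median to -0.11. Sodium channel genes were among those that rose. Scn3b, an auxiliary subunit, was at least 30.29-fold higher, Scn3a at least 18.21-fold and the pore subunit Scn2a at least 38.74-fold. The probes of Scn2a did not give the same answer, with changes from -1.26 to 6.81. Kcnc1, a fast potassium channel, was at least 16.06-fold higher. The inward rectifier Kcnj3 fell by 3.46 and the leak channel Kcnk1 by 2.94.

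Guidance and adhesion genes rose in 33 of 45 measured cases (73.3%) and fell in 5, with a median of 3.11 (1.87 with normexp); 16 and 2 were called without the vector differentiated array. Of the measured members 8 were detected only in the differentiated of the 2 states and could hardly be called lower. Among the 34 detected on all 4 arrays 23 were at least 2-fold higher in both lines and 4 lower. Dcc, the netrin receptor, went from -7.86 and -7.76, below detection, through 1.94 and 0.405 to 3.85 and 2.12, at least 453.4-fold. Robo2, the receptor for Slit, was at least 31.75-fold higher. The plexin Plxna4 was at least 72.67-fold higher at one probe and changed by 1.26 at the other, and Plxna2 rose by 5.91 ± 0.36 (limma, adjusted p = 0.00494). Chl1, an adhesion protein of the L1 family, was at least 83.89-fold higher and reached 1.72 and -0.62. Reln, secreted by early-born neurons, rose by 5.06. Unc5b, a repulsive netrin receptor, fell by 2.76 and Sema3c was at least 5.951-fold lower.

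Hox genes, which set position along the body axis, mostly rose. Of 26 measured members 19 rose (73.1%) and 3 fell, with a median of 4.52 (2.76 with normexp, 1.8 without a filter on dim probes, 2.96 over genes detected on all 4 arrays), and 11 and 2 were called without the vector differentiated array. Hoxb5 was below detection at -8.06 and -7.93, stood at 4.79 and 4.34 in the aggregates and at 4.59 and 2.88 after, at least 763.7-fold higher. Hoxb2 was at least 667.9-fold higher and Hoxb8 at least 675.5-fold, though the other probe of Hoxb8 changed by 2.69. Hoxa2 and Hoxa5 were at least 245.2-fold and 299.2-fold higher. These named genes are among 7 members detected only in the differentiated of the 2 states, which could hardly be called lower. Among the 10 detected on all 4 arrays 7 were at least 2-fold higher in both lines and 0 lower.

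The genes that fell were Hoxd13 (at least 12.32-fold lower), Hoxb13 (-2.77) and Hoxd1 (-2.09), the last 2 with 1 differentiated array well above background. Hoxd13 and Hoxb13 sit at the far end of their clusters, whereas the genes that rose were of groups no higher than 9. Hoxd1 peaked in the aggregates at 0.83 and -0.84.

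**Figure D4:**
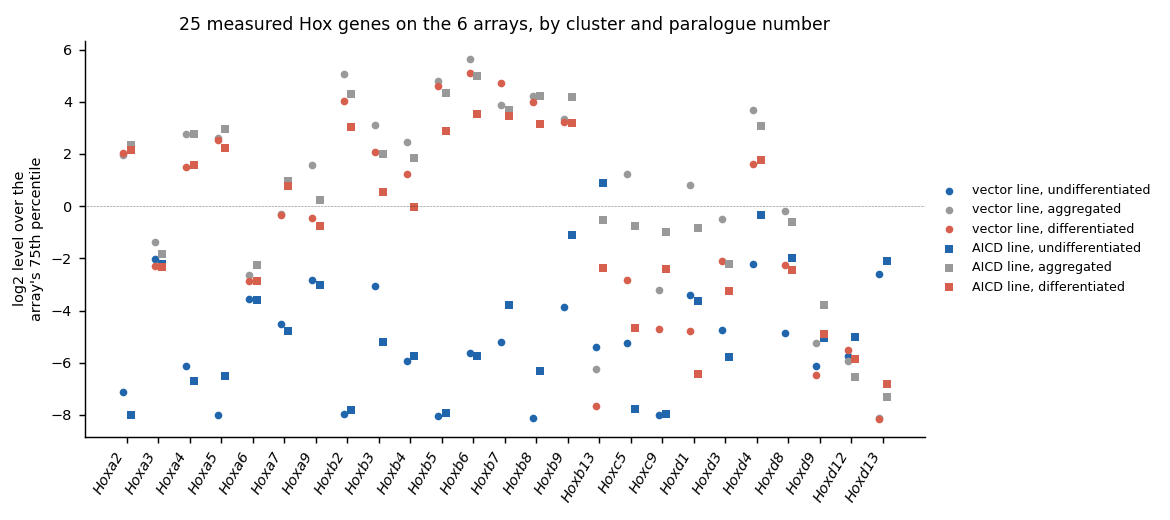
Level (y axis, log2 over the array's 75th percentile) of 25 of the 26 measured Hox genes (x axis, by cluster and paralogue number) on each of the 6 arrays, circles for the vector and squares for the AICD line, coloured by state. Undifferentiated values of Hoxb2 to Hoxb8 lie below those of the aggregated and differentiated state, and Hoxd13 runs the other way.

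Members of the retinoid pathway went both ways, with 5 of 24 measured members higher (20.8%) and 5 lower, a median of 0.15 (-0.21 without the vector undifferentiated array, 0.69 on spike-in scaling), and 1 and 4 called without the vector differentiated array. Several members peaked under retinoic acid. Cyp26a1, which degrades retinoic acid, stood at -4.12 and -3.92, rose to 2.1 and 0.66 in the aggregates and returned to -3.94 and -2.69. Its relative Cyp26b1 went from -6.5 and -4.18 to 3.5 and 2.99 and back to -5.27 and -3.26, with 1 undifferentiated array well above background. The receptor Rarb followed the same course, reaching 3.13 and 2.58. Dhrs3, a retinal reductase, peaked at 5.02 and 4.7 and then fell below its start (-2.33, limma, adjusted p = 0.0186). The 5 members called higher were Meis1, Meis2 and Tshz1, homeobox and zinc finger factors, Crabp1, a retinoic acid-binding protein, and the receptor Rxra (0.52). Meis1 and Crabp1 were well above background on 1 undifferentiated array. Tshz1 rose by 5.19 ± 0.16 (limma, adjusted p = 0.00494).

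Cell cycle genes fell in 33 of 44 measured cases and rose in 2, with a median of -1.42 (-0.88 on spike-in scaling); 3 and 0 were called without the vector differentiated array and 24 and 0 without the vector undifferentiated one. On spike-in scaling 21 fell and 4 rose. Bub1, a spindle checkpoint kinase, went from 6.5 and 6.38 to 0.61 and 2.52, a change of -4.87 ± 0.54 (limma, adjusted p = 0.00758), and its other probe changed by -1.72. Cdk6 fell by 4.12 (-2.34 at its other probe), cyclin Ccne1 by 2.61, Aurka by 2.14 and the helicase subunit Mcm5 by 2. Mki67, a marker of cycling cells, changed by -0.44, the median of all genes, from 4.94 and 4.97 to 4.41 and 4.61. Ccnd2, a D-type cyclin, rose by 1.44 and Cdkn2c, an inhibitor of Cdk4 and Cdk6, by 1.98. Trp53 fell by 2.35 ± 0.15 (limma, adjusted p = 0.00509), from 3.25 and 3.31 to 0.89 and 0.98. Of 24 measured p53 targets and apoptosis genes 9 fell (5 on spike-in scaling, where 5 rose), Phlda3 (-3.42) and Perp (-3.55) among them, and 1 rose, Gadd45g (2.55); the list's median of -0.46 (0.08 on spike-in scaling) lies close to that of all genes, and 2 fell without the vector differentiated array.

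Glycolytic genes fell after replating. In the list of glycolysis and hypoxia genes 19 of 29 fell (65.5%) and 3 rose, with a median of -1.76 (-1.22 on spike-in scaling, where 15 fell and 5 rose). Without the vector differentiated array 7 fell and 0 rose. Ldha, which makes lactate, stood at 7.09 and 7.4, at 7.04 and 7.4 in the aggregates and at 2.87 and 4.49 after, a change of -3.57 ± 0.39 (limma, adjusted p = 0.00758). Pdk1, which holds pyruvate back from the mitochondria, rose to 2.2 and 1.29 in the aggregates and fell to -3.56 and -3.21. Hk2 fell by 3.22, Eno1 by 3.1, Aldoa by 2.84, the lactate exporter Slc16a3 by 4.68 and Bnip3, of mitophagy, by 2.98.

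Some isoforms of the same enzymes went the other way: Eno2, the neuronal enolase, rose by 2.75, Aldoc, the brain aldolase, by 1.31 and Pfkp by 1.43 (0.56 at its other probe). The hypoxia-responsive genes Ndrg1 and Ddit4 peaked in the aggregates, at 4.49 and 2.24 and at 7.13 and 6.27, and were not called between the end states. The glucose transporter Slc2a1 changed by -1.82 in the vector and 0.79 in the AICD line. ACGTG was found in 6447 of 32851 promoter windows (19.6%) and in 18 of the 27 list members with a window; 13 of these 18 fell and 1 rose. Over all 2996 tested genes with the letters 43.9% fell and 17.7% rose, close to the shares of all genes.

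Sterol and fatty acid synthesis genes rose: 19 of 27 measured members (70.4%), with 0 called lower and a median of 0.96 (1.5 on spike-in scaling). Counts were 13 without the AICD undifferentiated array, 10 without the AICD differentiated and 6 without the vector differentiated array, and 21 rose on spike-in scaling. Hmgcs1, the synthase at the head of the pathway, went from 4.09 and 3.65 through 5.69 and 5.38 to 6.48 and 6.21, a change of 2.47 ± 0.15 (limma, adjusted p = 0.00494). The squalene synthase Fdft1 rose by 2, Msmo1 by 1.73 and Cyp51 by 1.67. The regulators Srebf2 and Insig1 rose by 1.06 (0.42 at the other probe of Srebf2) and 1.68, and the desaturase Fads2 by 1.9. TCACNCCAC lay in 408 promoter windows (1.24%). Of the 17 list members with a window, out of 27, Hmgcs1 alone held it, and over all 157 tested genes with it 21.0% rose and 40.8% fell, close to the shares of all genes.

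App, which encodes the amyloid precursor protein, and its neuronal relative Aplp1 rose, and the third member, Aplp2, did not pass the test. App went from -0.462 and -0.214 through 1.42 and 0.925 to 2.86 and 2.03, a change of 2.78 ± 0.307 (limma, adjusted p = 0.0076); the sources used here do not say whether its probe covers the introduced fragment. Aplp1 rose by 3.8, and Aplp2 was at 4.47 and 4.66 before and 4.77 and 4.64 after. The adaptors that bind the intracellular domain, Apba2 and Apbb2, rose by 3.33 and 2.24. Bace1, the beta-secretase, rose by 1.15 and Aph1b, a gamma-secretase subunit, by 2.3 (0.15 to 2.64 over its 3 probes). Psen2 changed by -0.99 and was not called (limma, adjusted p = 0.0547). The alpha-secretase Adam17 fell by 0.65, near the median of all genes (-0.44). On spike-in scaling 9 members of the list were called higher and 0 lower. In all 9 of 16 measured members rose (56.2%) and 1 fell, and 2 rose without the vector differentiated array.

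Ribosomal protein and reference genes depended on the scaling. Of 32 ribosomal protein genes 29 fell (90.6%), with a median of -1.1, but on spike-in scaling 6 fell, with a median of -0.56, and quantile normalization gave a median of -0.16; without the vector differentiated array 0 fell, and without the vector undifferentiated array 11. Of 18 reference genes 13 fell (72.2%, and 5 on spike-in scaling; 2 without the vector differentiated array and 8 without the vector undifferentiated one). Gapdh fell by 2.1, Hprt by 2.34 and Actb by 0.92.

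**Figure D5:**
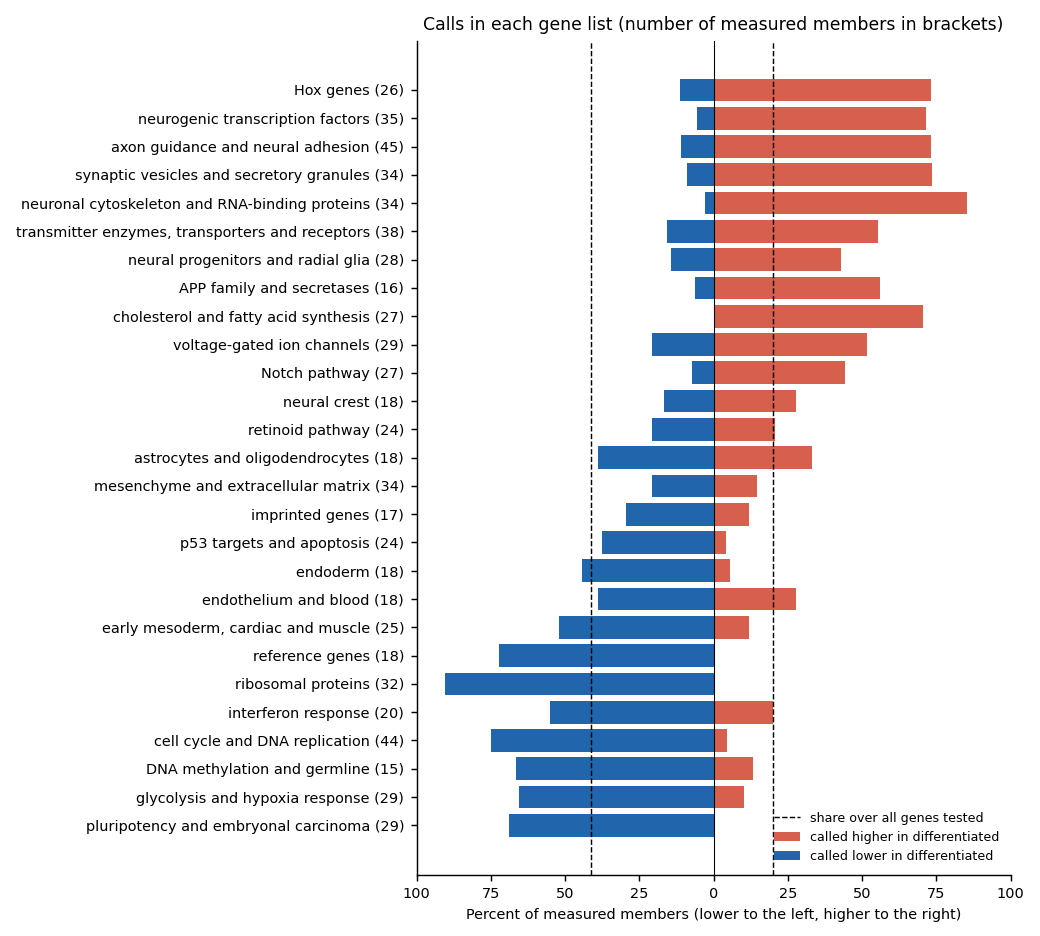
Percent of the measured members of each gene list (y axis, number of members in brackets, ordered by median change) called higher (red, to the right) or lower (blue, to the left) in the differentiated state. Dashed lines mark the shares over all genes tested, 20.1% higher and 41.3% lower.

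Lists of other lineages mostly lay near the shares of all genes. Of early mesoderm and muscle genes 13 of 25 fell and 3 rose (7 and 4 on spike-in scaling). Eomes and Gsc, of the primitive streak, changed by -4.1 and -3.67, each with 1 differentiated array well above background, whereas Myh7, a myosin heavy chain, rose by 4.44 from -3.51 and -3.53 to 1.79 and 0.05. Of endoderm genes 8 of 18 fell and 1 rose, with Krt18 (-3.37, 1 differentiated array well above background) and Krt8 (-2.03), keratins of simple epithelia, among those that fell, and Cxcr4 (2.01) the one that rose. Of endothelial and blood genes 7 of 18 fell and 5 rose (3 and 6 on spike-in scaling), Runx1 falling by 1.93 and Aif1 being at least 10.17-fold higher. Astrocyte and oligodendrocyte genes divided evenly (6 higher and 7 lower of 18, and 9 and 5 on spike-in scaling): the glutamate transporter Slc1a2 was at least 14.29-fold higher and Mbp rose by 1.39 (0.6 to 3.6 over its 3 probes), and Gja1 and Apoe fell by 2.45 and 2.11. Without the vector differentiated array these 4 lists had 3 and 1, 3 and 0, 0 and 0, and 1 and 1 members called lower and higher. Of the defining markers of these types, Gfap, Aqp4, Mog, Myog, Ttr, Pecam1, Cdh5 and Ptprc were well above background on none of the 6 arrays, but others were. In the differentiated state 2 of 4 astrocyte and 3 of 4 oligodendrocyte markers were detected in each line, as before. The oligodendrocyte markers summed to 6.44 and 7.38 before and 8.97 and 10.3 after, and the astrocyte markers to 3.02 and 4.68 before and 0.837 and 1.93 after. For muscle 4 and 3 of 6 markers were detected after, with sums of 3.27 and 0.207 before and 4.43 and 1.16 after, and for endoderm 4 and 3 of 6, with sums of 0.351 and 0.513 before and 0.248 and 0.357 after. For endothelium and blood 1 of 3 markers each was detected after. The part of such cells in the results was not tested.

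Neural crest genes included Ngfr, the p75 neurotrophin receptor (5.85, and 1.1 at its other probe), Tfap2b (4.68, with 1 undifferentiated array well above background, and 0.36 at its other probe) and Pax3 (at least 16.96-fold), which rose, and Foxd3 (-4.64), which is also a pluripotency factor and fell; 5 of 18 rose and 3 fell (median 0.31, and -0.14 with the normexp background correction), and 3 and 1 without the vector differentiated array. Of interferon response genes 11 of 20 fell and 4 rose (6 and 4 on spike-in scaling): Bst2 fell by 4.18 and Ifitm3 by 2.33, and the transcription factor Stat2 rose by 2.07; 0 were called without the vector differentiated array. Of 17 imprinted genes 5 fell and 2 rose: Nnat, of neuronal differentiation, rose by 5.64 and the adaptor Grb10 fell by 3.56 (-2.25 at its other probe). Without the vector differentiated array 0 fell and 1 rose. On spike-in scaling the median of the imprinted genes was 0.14, against -0.39.

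The genes with the largest change in both lines and detected on all 4 arrays also held members outside the lists. Among those that rose were Akap6, an anchor of protein kinase A (7.05), Nsg2, of neuronal endosomes (8.58), Plppr3 (7.23), the transcriptional corepressor Skor1 (8.76), the zinc finger factor Zfp503 (7.24) and Igfbp5, an IGF-binding protein (7.05, with 2.97 at its other probe). Skor1 went from -2.82 and -4.22 to 6.47 and 4.01. Among those that fell were Folr1, a folate receptor (-4.93), Hspb1, a small heat shock protein (-4.62), and Slc39a8, a metal importer (-5.37). Steap1 and Steap2, of the same gene family, also fell (-4.74 and -4.53). So did Enpp2, which makes lysophosphatidic acid (-4.06), Hcrt, the orexin precursor (-4.57), Pawr (-4.03) and Tex21 (-4.43). Hspb1 went from 3.23 and 3.26 to -1.34 and -1.4. Detected on both undifferentiated and neither differentiated array were also the protease genes Mmp25 (at least 27.47-fold lower), Klk8 (19.64) and Prss16 (17.79) and Stat4 (15.48). The same held for the sperm enzyme Gapdhs (15.6), which was also detected in the aggregates.

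Few genes moved 2-fold or more in opposite directions. Of 11771 genes detected on all 4 arrays, 26 (0.221%) were at least 2-fold higher in the vector and 2-fold lower in the AICD line, and 13 (0.11%) the reverse. Each of these rests on single arrays and has no test. Col3a1, a fibrillar collagen, went from -3.61 to 3.72 in the vector line and from -1.58 to -4.14 in the AICD line. Col1a2 rose by 4.15 and changed by -1.32, and Lum, a matrix proteoglycan, went from -6.21, below detection, to -0.55 in the vector line and was at -8.09 in the differentiated AICD line. The median of the mesenchyme and matrix list was 0.68 in the vector and -1.31 in the AICD line, and 5 of its 34 measured members were called higher and 7 lower. Over both lines the median was -0.09, and 0.45 on spike-in scaling; without the vector differentiated array 2 and 4 members were called. The 7 mesenchyme markers summed to 2.09 and 1.75 in the undifferentiated and 30.5 and 0.521 in the differentiated state. Ccn1 and Ccn2, matrix-associated targets of mechanical signalling, fell in both lines (-4.11 and -4.69), Ccn2 with 1 differentiated array well above background.

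Other genes changed in one line with less than 1.5-fold in the other, again without a test, and up to 4 per line and direction are named. In the vector line Hes5, Fgf12 (6.2), the mesenchymal factor Prrx1 (4.47) and Ccdc80 (4.3) were higher and Spon1 (-5.08), Galnt3 (-4.56), Mgarp (-4.47) and the ventral neural factor Nkx6-2 (-4.11) lower. In the AICD line Igfbpl1 (3.54), Tceal3 (2.92), Skap2 (2.65) and Olfm2 (2.47) were higher and Id1, an inhibitor of helix-loop-helix factors (-3.68), Acta1 (-3.26), Hspb8 (-3) and Snai2 (-2.98) lower. Igf2, a growth factor gene that is imprinted, belongs instead to the genes above that moved 2-fold or more in opposite directions. It went from 0.49 to 5.61 in the vector line and from 2.28 to 0.97 in the AICD line.

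On the aggregated arrays many genes already lay nearer to the differentiated state. Those arrays share the slide and scan of the differentiated ones, so a slide difference and an early change cannot be told apart. Of the 1363 genes at least 2-fold higher in both lines, 721 (52.9%) had passed the midpoint between the end states on both aggregated arrays and 296 on neither. Of the 2555 lower genes 1754 (68.6%) had passed it on both and 374 on neither. These counts share the arrays that chose the genes, and no test is given. Hoxb2, Dcx and Pou5f1 had passed it in both lines, and Ldha, at 7.04 and 7.4 in the aggregates, in neither.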

How the data were processed

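Total RNA of 2 P19 lines in 3 states was hybridised to 1-colour Agilent arrays, 1 per line and state. Per the file headers the deposited scanner files came from Feature Extraction 10.1.1.1 and name build mm9; the processed intensity of each spot was made by that software, per the file headers, and its 75th percentile still differed between arrays (529 to 878). The deposited value table holds a score on a scale that the sources used here do not give, and it served as a check only.

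Here log2 of the processed intensity was taken minus log2 of each array's 75th percentile over non-control spots, repeated spots were averaged, and each gene was represented by its probe of highest mean among 28457 probes well above background on at least 2 of 6 arrays. Symbols were brought up to date through RefSeq GRCm38.p6. limma 3.58.1 in R 4.3.3 fitted state and line to all 6 arrays (2 residual degrees of freedom), with Benjamini-Hochberg adjustment over 13380 genes; line is the block, since each line gave 1 array per state. The labels do not say whether the arrays came from separate cultures, so p-values measure only the spread between these arrays, and the number of arrays limits the precision.

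A gene not well above background on both arrays of a state has a lower bound ("at least N-fold"): the bright state's mean against the mean, per dim array, of the higher of the lowest signal well above background and the probe's own. The steps were tested on simulated data. Named genes were the largest changes common to both lines, the largest bounds, up to 6 members per list by size, the most divergent between lines, App, and members needed to account for a list; members and lists were chosen with earlier results of these data known. Alternatives were background correction (normexp on median signals, since mean signals were not used here), normalization, probe filter and choice, model, fold minimum and each array left out; the spike-in scaling was added after seeing the data.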

Additional observations from a re-analysis of the deposited data

Results flagged for a closer look

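A set of genes stood out because the lines moved in opposite directions; each rests on 1 array per line and state, and the difference was not tested. The AICD change minus the vector change was -9.89 for Col3a1, -5.47 for Nedd9, -5.43 for Cavin2 and -4.25 for Thbs2, all higher after differentiation in the vector line and lower in the AICD line. It was 8.26 for Foxd4, 4.28 for Sox13, 3.99 for Pdzk1 and 3.78 for Ramp2, which ran the reverse way. The median changes of 4 gene lists also had opposite signs in the lines, with an AICD minus vector difference of -1.99 for mesenchyme and matrix, -1.11 for neural crest, -0.82 for imprinted genes and -0.55 for the retinoid pathway, none of them tested.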

How the results depend on the processing

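Leaving out 1 array at a time gave 896 to 6627 calls, 890 to 6482 of them of the same sign in both lines, with 515 to 2251 higher and 381 to 4376 lower. The lowest came without the vector differentiated array and the next without the vector undifferentiated array (4509 calls, 4444 of the same sign, 1702 higher, 2807 lower); each such fit has fewer arrays and takes a lone array to vary like the others. Of 180 called genes named in the text or its rule, 87 lost their call without the vector differentiated array and 0 to 19 under each other alternative. The pairing is by line, and without it as a replicate block 7612 genes were called. On spike-in scaling 2183 genes were lower, and in both lines 2224 rose and 1034 dropped 2-fold or more. At 4-fold the counts were 522 and 359, and at 1.5-fold 2075 and 4491, as a stricter or looser minimum must give. With normexp 6 genes were opposite with AICD higher and 11 with vector higher; the cause was not tested. Scn2a turned to -1.26 when probes had to be well above background on all 4 arrays, because another of its probes then stood for it. List medians that changed sign, beside those given with the results, were astrocytes and oligodendrocytes (0.09, from -0.51 to -0.01 under 4 alternatives) and mesenchyme (0.03 with normexp, 0.41 without the AICD undifferentiated and 0.47 without the AICD differentiated array). Genes not well above background on both arrays of a state have bounds only, those dim on 1 array have measured values that depend on the floor, and state and slide cannot be told apart.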

Other observations

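Probes that matched no gene symbol through RefSeq moved too. Of 6681 such probes well above background on all 4 arrays, 1429 (21.4%) were at least 2-fold higher in both lines and 1142 (17.1%) at least 2-fold lower. The genes with a symbol gave 11.6% and 21.7%, but those were counted per gene, by the probe of highest mean, and not per probe. In the value table the authors deposited, 23271 of 41252 probes were blank on every array. On each array 99.7% to 99.8% of the listed values lay within 0.05 of the scanner values after a shift. For the genes named here, all 154 line-wise differences listed in both states ran in the direction of the scanner values. Given that match, the shared direction checks the assignment of columns and is no separate evidence.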
